A study of Homo sapiens with 8 samples.

Results

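The genes described here act in G2 and mitosis: the kinases, cyclins and phosphatases that start mitosis, the spindle checkpoint, the anaphase machinery, mitotic kinesins, kinetochore proteins, spindle proteins and the cytokinesis machinery. They were chosen by name, 40 in all. A gene was measured if a probe annotated with its symbol exceeded an intensity of 20, the floor of the deposited table, on at least 2 of 8 arrays, and its brightest probe was used. All 40 passed, as part of 12759 genes tested, and all 40 lay above the floor on all 8 arrays, so the filter favoured no group among them. Their intensities ran from 44.3 for ESPL1 to 13706 for CDC20.

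RNA came from MNNG/HOS, a human osteosarcoma cell line derived from HOS cells by chemical transformation, and each group held 2 arrays. The control group received the solvent DMSO. The other groups received JQ1, labelled as 7.5 mM, rapamycin at 12.5 nM, or both drugs at these doses; the unit of the JQ1 dose could not be checked and no treatment time was found in the labels. JQ1 displaces BET bromodomain proteins from acetylated chromatin, and rapamycin inhibits the growth-regulating kinase complex mTORC1. All groups share the 1 cell line and the labels name no genetic change. The labels do not tell whether a group's arrays stem from separate cultures, and p-values cover only how far such arrays differ, possibly for technical reasons.

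The 2 deposited tables name 6 of the 8 arrays differently. Arrays were matched between them by rank correlation, at least 0.997 for each match and at most 0.98 for any other pair. An array named for replicate 2 by the non-normalized table's header is a JQ1-treated one by the value table, with or without rapamycin. An array that the header names for JQ1 is a rapamycin-treated one by the value table, and the header's rapamycin arrays are replicate 2. Names here are those of the value table, since its columns belong to the sample records. If the header were right, the JQ1 comparison averaged over rapamycin below would be one of replicate 2 against replicate 1. Regrouped by the header, none of the 40 genes was called in any of the 8 comparisons. Few of all 12759 genes were called then either. Against DMSO there were 1 for JQ1, 25 for rapamycin and 130 for the combination. The combination had 18 against JQ1 and 0 against rapamycin. Mean intensity ran from 455.5 to 481.6 over the arrays. Of 11 mesenchymal and osteoblast markers 6 lay above the floor on all arrays, among them VIM (28108 to 33757), COL5A1 (1614 to 3303) and CDH11 (1066 to 3971), while the osteoblast genes SP7 and ALPL and the collagen gene COL1A2 were at the floor on every array. The keratin genes KRT5, KRT14 and KRT19, the leukocyte gene PTPRC and the endothelial gene VWF were at the floor on all arrays. EPCAM, an epithelial marker, ran from 147 to 225, and the myeloid markers CD68 and CD14 from 697 to 1696 and from 28.8 to 476.

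As background, transcription of these genes is low in G1 and climbs through S phase to a peak in G2 and mitosis. In resting cells the DREAM complex, which contains the MuvB core proteins and an E2F and pocket protein, keeps them off; later MuvB joins the factors B-MYB and FOXM1 and the genes are switched on. The MuvB subunit LIN54 contacts a short promoter element called the CHR, and the trimeric factor NF-Y binds CCAAT boxes beside it. The encoded proteins condense chromosomes, build the spindle, hold anaphase until kinetochores are attached and split the cell, after which the APC/C ubiquitin ligase destroys many of them. In a growing culture the level of such transcripts follows the share of cells in G2 and mitosis as well as transcription within each cell.

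Promoters of members are shown because the CHR and CCAAT letters are a feature of these genes that the choice by name did not use. RefSeq promoter sequences (GRCh38.p14) matched 34 of the 40 symbols; AURKA, TTK, UBE2C, TPX2, BIRC5 and FOXM1 are named without one. Windows of 280 bases, from 250 before to 30 after the transcription start, were searched on both strands for TTTGAA and TTCGAA, which are common CHR forms, and for CCAAT. Printed below, 5′ to 3′ on the gene's strand with every match in capitals, are the 4 matched members with the largest mean change over the treatments (BUB1B, PLK1, ECT2 and KIF14, by the size of the log2 change against DMSO averaged over the 3 treatments), and the mitotic reference genes CCNB1, CCNB2 and CDK1. The windows are chr15:40160819-40161098 on the forward strand for BUB1B, chr16:23678639-23678918 on the forward strand for PLK1, chr3:172750476-172750755 on the forward strand for ECT2, chr1:200620722-200621001 on the reverse strand for KIF14, chr5:69166900-69167179 on the forward strand for CCNB1, chr15:59104896-59105175 on the forward strand for CCNB2 and chr10:60778081-60778360 on the forward strand for CDK1.
BUB1B: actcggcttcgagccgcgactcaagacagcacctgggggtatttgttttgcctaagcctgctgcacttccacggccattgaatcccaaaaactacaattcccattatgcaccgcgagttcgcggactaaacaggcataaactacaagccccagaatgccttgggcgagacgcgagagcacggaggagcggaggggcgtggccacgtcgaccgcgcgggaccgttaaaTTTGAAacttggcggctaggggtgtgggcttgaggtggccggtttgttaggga
PLK1: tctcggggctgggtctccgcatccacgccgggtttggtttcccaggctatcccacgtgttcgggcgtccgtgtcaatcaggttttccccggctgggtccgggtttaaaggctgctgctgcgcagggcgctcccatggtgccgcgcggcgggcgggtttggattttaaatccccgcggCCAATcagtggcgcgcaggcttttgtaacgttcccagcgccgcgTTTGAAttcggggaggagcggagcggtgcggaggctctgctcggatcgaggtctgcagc
ECT2: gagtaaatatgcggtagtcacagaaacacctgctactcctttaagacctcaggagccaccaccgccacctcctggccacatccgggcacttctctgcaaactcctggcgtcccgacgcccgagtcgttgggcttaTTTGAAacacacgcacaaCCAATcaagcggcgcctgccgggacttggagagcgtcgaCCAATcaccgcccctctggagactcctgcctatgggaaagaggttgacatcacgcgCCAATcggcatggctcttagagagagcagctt
KIF14: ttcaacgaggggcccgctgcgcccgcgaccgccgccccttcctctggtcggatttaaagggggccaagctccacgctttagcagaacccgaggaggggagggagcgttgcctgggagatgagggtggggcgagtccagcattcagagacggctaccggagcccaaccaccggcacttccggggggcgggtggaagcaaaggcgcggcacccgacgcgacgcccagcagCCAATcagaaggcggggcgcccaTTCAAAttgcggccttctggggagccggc
CCNB1: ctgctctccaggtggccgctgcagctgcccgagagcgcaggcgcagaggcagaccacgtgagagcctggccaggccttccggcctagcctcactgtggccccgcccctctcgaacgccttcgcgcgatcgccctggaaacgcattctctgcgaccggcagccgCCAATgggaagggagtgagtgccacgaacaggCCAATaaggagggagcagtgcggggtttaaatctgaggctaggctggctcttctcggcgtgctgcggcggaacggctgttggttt
CCNB2: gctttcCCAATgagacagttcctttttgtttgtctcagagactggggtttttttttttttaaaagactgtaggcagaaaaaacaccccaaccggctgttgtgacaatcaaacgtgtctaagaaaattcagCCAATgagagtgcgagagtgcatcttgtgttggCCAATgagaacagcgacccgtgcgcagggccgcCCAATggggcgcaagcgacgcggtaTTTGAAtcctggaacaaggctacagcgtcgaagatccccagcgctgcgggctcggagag
CDK1: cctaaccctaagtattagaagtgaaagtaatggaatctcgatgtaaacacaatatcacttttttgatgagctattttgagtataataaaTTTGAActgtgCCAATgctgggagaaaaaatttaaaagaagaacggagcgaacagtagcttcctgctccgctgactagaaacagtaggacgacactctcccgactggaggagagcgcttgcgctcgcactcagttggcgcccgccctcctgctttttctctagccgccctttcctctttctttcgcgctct

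A CHR-like match lay in 23 of the 34 member windows (67.6%), against 15.8% of all 27305 promoters of that length. CCAAT was found in 26 (76.5%, against 34.7%), and at least 2 copies of it in 15 (44.1%, against 10.8%). Matches of both kinds stood together in 19 members (55.9%, against 6.1% of all promoters). The median position of the first base of the CHR-like matches was -28 from the start, and that of the CCAAT matches was -69. In the last 50 bases before the start and the 30 after it, a window chosen after the positions were seen, 17 members (50%) held a CHR-like match, against 4.1% of all promoters. PLK1 shows the usual arrangement, with CCAAT at -73 and TTTGAA at -29. BUB1B has the CHR-like match without a CCAAT, CCNB1 has CCAAT copies without either CHR form searched, and CDC25C and CDC25B have neither in this window.

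**Figure D1:**
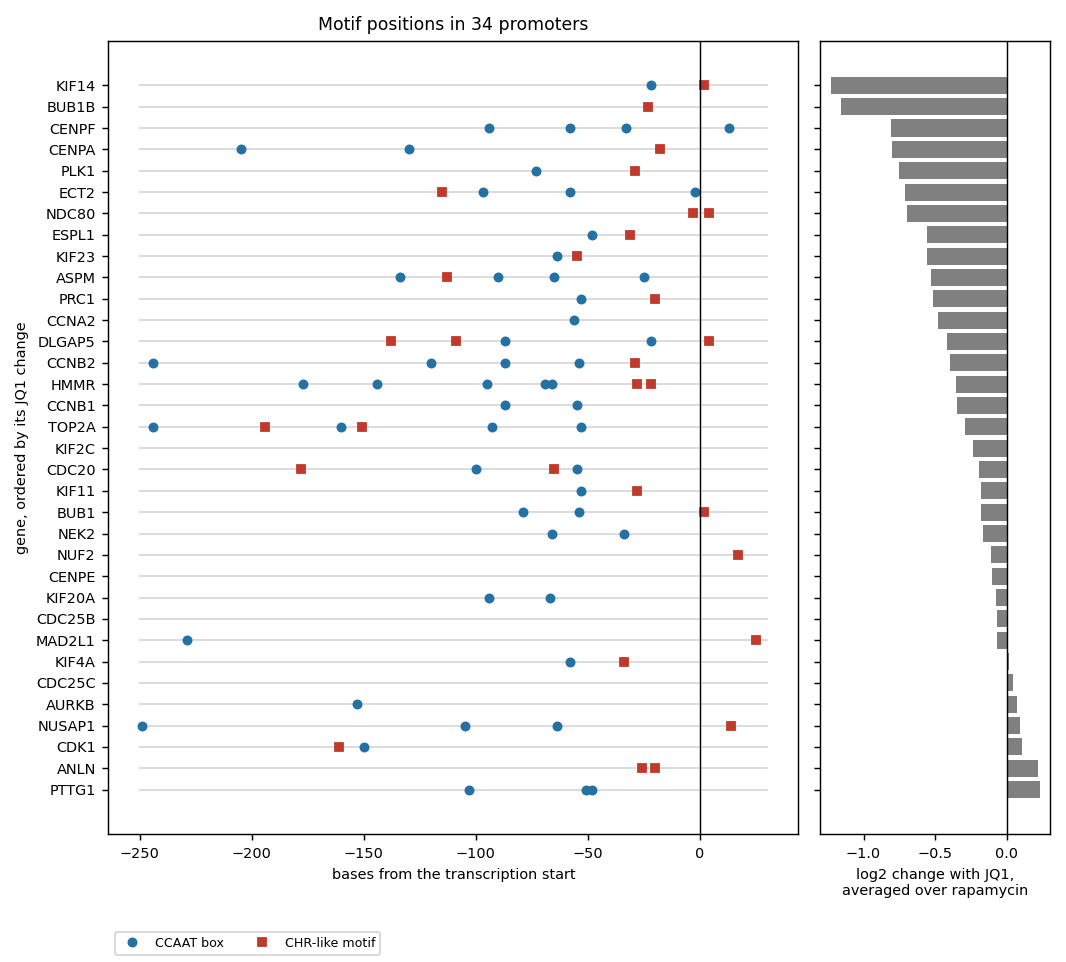
Left, positions of CCAAT matches (blue circles) and CHR-like matches (red squares) in 34 member promoters, with the first base of each match in bases from the transcription start. Right, each gene's log2 change with JQ1 averaged over rapamycin, by which the rows are ordered; 23 of the 34 promoters hold a CHR-like match.

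Across the set, levels were lower in the arrays with JQ1. The mean log2 level of the 40 genes was 10.00 and 9.84 with DMSO, 10.03 and 9.93 with rapamycin, 9.73 and 9.52 with JQ1, and 9.47 and 9.58 with both drugs. Every array without JQ1 stood above every array with it, and the mean over all 12759 genes ran from 7.25 to 7.37. With each array's all-gene mean subtracted the order held by a narrow margin. The closest arrays were then replicate 2 of DMSO (2.487) and replicate 1 of JQ1 (2.469). Over the 40 genes 51.6% of the variance among arrays lay between arrays with and without JQ1, 17.3% between replicates 1 and 2 and 15.2% between arrays with and without rapamycin. Over all genes these shares were 39.2%, 24.3% and 16.5%. The spread of an array within its group, taken from the replicate differences, had a median standard deviation (SD) of 0.23 over the 40 genes and 0.28 over all genes on the log2 scale. RNA was measured in bulk, so fewer cells in G2 or mitosis and less RNA per such cell cannot be told apart.

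**Figure D2:**
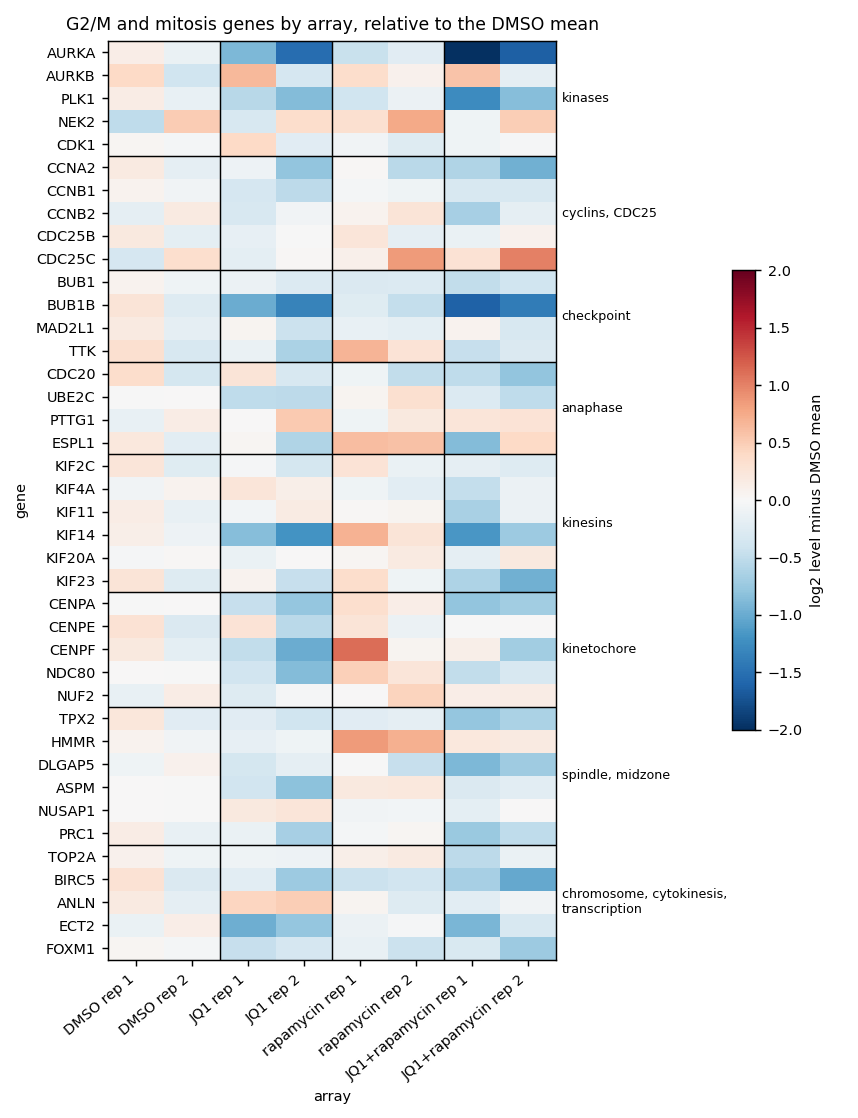
Log2 level of each of the 40 genes (rows, in role classes) on each of the 8 arrays (columns) minus the gene's DMSO mean; blue is lower and red higher. AURKA, BUB1B, KIF14 and CENPA are blue on all 4 arrays with JQ1, while AURKB and CDK1 are not.

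The 2 by 2 layout allows the JQ1 effect to be averaged over rapamycin, with 4 arrays against 4. In that comparison AURKA, PLK1, BUB1B, UBE2C, KIF14, CENPA, NDC80 and ECT2 fell: 8 of the 40 genes (20%) passed limma's test at an adjusted p under 0.05, all lower, where 7.38% of all genes passed in that direction. The median log2 change of the 40 was -0.35, with 33 negative, beside -0.01 for all genes. In 12 members (30%) all JQ1 arrays lay below all arrays without JQ1, against 9.91% of all genes, and in none did they lie above, against 6.98%. With the replicate number as a block 13 members passed, all lower (32.5%, against 13.8% of all genes); CCNA2, TTK, KIF23, CENPF and ASPM were added to the 8. These fits share all 8 arrays.

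The count of 8 rested on every array. Each omission left 1 array in a group, so the count of all genes called may fall in it too. That all-gene count is not given here. It ran from 1 (without replicate 2 of JQ1) to 5 (without replicate 1 of JQ1 or replicate 2 of the combination) when an array was left out. It was 2 without replicate 1 of DMSO or of rapamycin, and 3 without replicate 2 of either or replicate 1 of the combination. With no filter on low values it was 1, CENPA, where 641 of all genes were called, against 1498 in the main fit. AURKA was called in 7 of the 8 omissions (adjusted p = 0.0504 without replicate 2 of rapamycin), BUB1B in 6 (0.0527 without replicate 2 of JQ1, 0.0569 without replicate 1 of rapamycin) and KIF14 in 6 (0.0511 without replicate 1 of DMSO, 0.0501 without replicate 2 of JQ1). CENPA was called in 3, NDC80 and ECT2 in 1 each, and PLK1 and UBE2C in none.

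**Figure D3:**
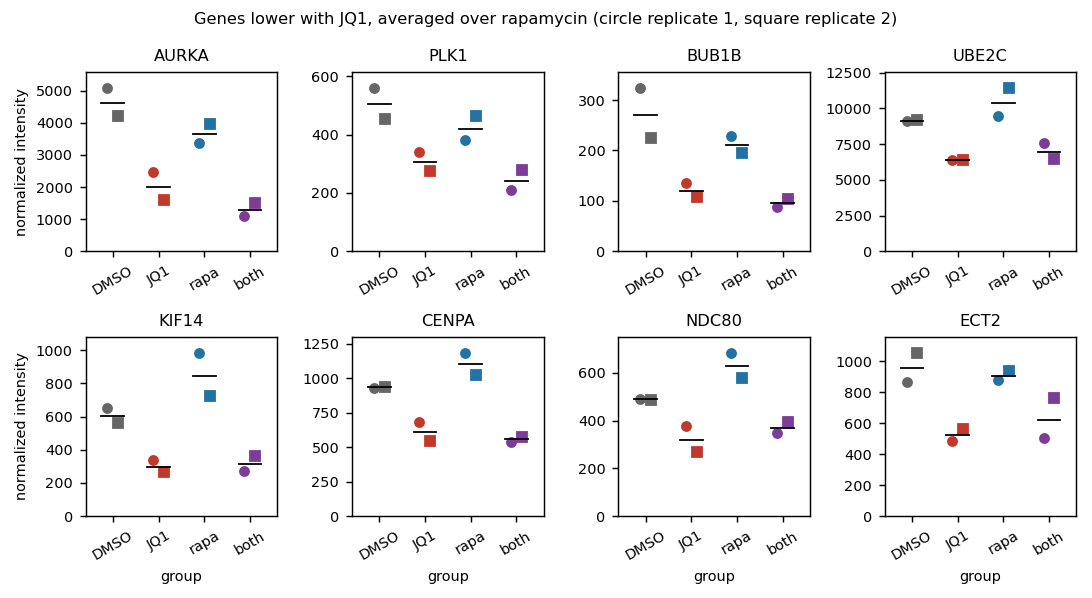
Normalized intensity (linear axis from 0) of the 8 genes that passed with JQ1 averaged over rapamycin, by group; circles are replicate 1, squares replicate 2, and bars the mean of the log2 values. In each panel the 4 arrays with JQ1 lie below the 4 arrays without it.

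Among the mitotic kinases, AURKA and PLK1 fell and AURKB, NEK2 and CDK1 did not pass. Aurora kinase A matures centrosomes and the spindle poles. AURKA stood at 5072 and 4203 with DMSO, 2475 and 1612 with JQ1, 3379.7 and 3962 with rapamycin and 1098 and 1493 with both drugs. All 4 JQ1 arrays were below all others, and the combination arrays were the lowest. The fall with JQ1, averaged over rapamycin, was 2.57-fold (log2 -1.36, standard error (SE) 0.20, adjusted p = 0.00933), with log2 changes of -1.33 within replicate 1 and -1.40 within replicate 2. A second AURKA probe had a log2 change of -1.36.

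PLK1, the kinase that drives mitotic entry and centrosome maturation, stood at 558 and 452 with DMSO, 341 and 276 with JQ1, 381 and 463 with rapamycin and 209.9 and 278 with both drugs. The JQ1 arrays were again below all others, with a log2 change of -0.76 (SE 0.17, adjusted p = 0.0362) that was -0.69 and no longer called (adjusted p = 0.0517) when arrays were centred on their medians. Aurora kinase B, the enzyme of the chromosomal passenger complex, showed no such order: AURKB was at 2089 and 1209 with DMSO, 2502 and 1258 with JQ1, 2019 and 1695 with rapamycin and 2358 and 1402 with both drugs. Its replicate 1 arrays exceeded its replicate 2 arrays in every group, and the JQ1 change was 0.07 (SE 0.31, adjusted p = 0.926). CDK1, the kinase that carries out mitotic entry, had 0.10 (SE 0.17), and its second probe 0.25. NEK2, a centrosome-splitting kinase, was at 265 and 533 with DMSO, 301 and 481 with JQ1, 471 and 636 with rapamycin and 354 and 526 with both drugs. Its replicate 2 arrays were the higher ones in each group, and its log2 changes were 0.02 with JQ1 and 0.54 with rapamycin (SE 0.42). A second, dimmer NEK2 probe had -0.63 with JQ1 and 0.10 with rapamycin. With JQ1 averaged over rapamycin 16 of the 18 other probes, which belong to 17 members, had the sign of the brightest probe, and the other 2 were those of CDC25C. Agreement was lower for the combination against DMSO. There the second probes of NEK2 (-0.43), CDK1 (0.22), MAD2L1 (0.001), CENPA (0.285) and CENPE (0.01) had the opposite sign to the brightest probe.

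Cyclins were lower with JQ1 by smaller amounts and the CDC25 phosphatases, which activate CDK1, showed no common direction; none passed without the replicate block. Cyclin A2 works in S phase and G2. CCNA2 stood at 1910 and 1502 with DMSO, 1586 and 984 with JQ1, 1724 and 1164 with rapamycin and 1112 and 868 with both drugs. The arrays overlapped between groups, and replicate 2 was the lower one throughout. Its JQ1 change of -0.48 (SE 0.23) had an adjusted p of 0.239, and of 0.033 with the replicate block. For the mitotic cyclins the change was -0.35 for CCNB1 (SE 0.13) and -0.39 for CCNB2 (SE 0.18). CDC25B had -0.07. CDC25C was at 262 and 414 with DMSO, 287 and 334 with JQ1, 352 and 596 with rapamycin and 404 and 663 with both drugs, with a log2 change of 0.65 in the combination (SE 0.38, adjusted p = 0.362), where its other probes had 0.62 and 0.46. With rapamycin alone the 3 probes had 0.47, 1.12 and 0.81.

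In the spindle checkpoint, which delays anaphase until chromosomes are attached, BUB1B fell and the other members were closer to the control. BUB1B, which encodes the checkpoint kinase BubR1, stood at 323 and 225 with DMSO, 136 and 107 with JQ1, 228 and 194 with rapamycin and 87.6 and 103 with both drugs. All 4 arrays with JQ1 were below all 4 without it. The fall averaged over rapamycin was 2.23-fold (log2 -1.16, SE 0.18, adjusted p = 0.011). TTK, the kinase MPS1 that recruits checkpoint proteins, was at 1144 and 729 with DMSO, 835 and 588 with JQ1, 1460 and 1105 with rapamycin and 664 and 747 with both drugs. Its arrays with JQ1 ran lower but overlapped the others, and its change of -0.62 (SE 0.21) passed only with the replicate block (adjusted p = 0.119, 0.0355 with the block). BUB1 had -0.18 (SE 0.13) and MAD2L1, which binds CDC20 to hold the APC/C, -0.07 (SE 0.18).

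Of the anaphase machinery, UBE2C fell. UBE2C, the ubiquitin-conjugating enzyme of the APC/C, stood at 9132 and 9169.9 with DMSO, 6419 and 6373 with JQ1, 9466 and 11414 with rapamycin and 7551 and 6444 with both drugs. Arrays with JQ1 were below all others, and the log2 change was -0.55 (SE 0.14, adjusted p = 0.0483), or -0.48 and not called (adjusted p = 0.093) with median centring; a second, dimmer probe had -1.55, and the mean of both probes -1.05. CDC20, the APC/C activator that the checkpoint holds back, held the highest single value of any member and stood at 13706 and 8425 with DMSO, 12799 and 8604 with JQ1, 10133 and 7623 with rapamycin and 7579 and 6218 with both drugs. Its replicate 1 arrays were the higher ones in each group. With JQ1 alone its change was -0.03 and in the combination -0.65 (SE 0.33, adjusted p = 0.29 without and 0.0487 with the block). Separase cuts cohesin: ESPL1 stood at 93.8 and 69.7 with DMSO, 82.6 and 53.1 with JQ1, 124 and 121 with rapamycin and 44.3 and 106 with both drugs. The combination arrays of ESPL1 lay on either side of the DMSO arrays. PTTG1, the separase inhibitor securin, had 0.23 with JQ1 (SE 0.17); near-identical copies of this gene may share its probe.

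Among 6 kinesins, motor proteins that move along microtubules, KIF14 fell. KIF14, which acts in cytokinesis, stood at 654 and 561 with DMSO, 336 and 263 with JQ1, 982 and 726 with rapamycin and 269.8 and 364 with both drugs. All 4 arrays with JQ1, alone or in the combination, were below the others, and the arrays with rapamycin alone were the highest. The fall averaged over rapamycin was 2.34-fold (log2 -1.23, SE 0.18, adjusted p = 0.01). KIF23, the centralspindlin motor of the midzone, was at 642 and 454 with DMSO, 569.6 and 394 with JQ1, 689.9 and 507 with rapamycin and 352 and 277 with both drugs. The combination arrays were below all others. Its change of -0.56 (SE 0.21) passed only with the replicate block (adjusted p = 0.153, 0.0155 with the block). KIF2C, which depolymerises microtubules at centromeres, had -0.24, the spindle pole motor KIF11 -0.18, the midzone motor KIF20A -0.08 and the chromatin motor KIF4A 0.01; SE ran from 0.14 to 0.18 for these, and none passed.

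All 5 kinetochore genes were lower with JQ1 and higher with rapamycin than the control in their group means. None passed in either comparison with DMSO, and 2 of them, CENPA and NDC80, fell with JQ1 averaged over rapamycin. CENPA, the histone H3 variant that marks centromeres, stood at 929.5 and 938 with DMSO, 679 and 545 with JQ1, 1181 and 1025 with rapamycin and 538 and 574 with both drugs. Arrays with JQ1 did not overlap those without, with a log2 change of -0.80 (SE 0.14, adjusted p = 0.0159). A second, dimmer CENPA probe had -0.05, and the mean of the probes had -0.42 and did not pass (adjusted p = 0.0796). CENPA lost its call without either DMSO array, replicate 2 of JQ1, or replicate 1 of rapamycin or the combination, with log2 changes from -0.88 to -0.72 over the 8 omissions.

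NDC80, which grips microtubules at the kinetochore, stood at 492 and 488 with DMSO, 376 and 268 with JQ1, 682 and 578 with rapamycin and 347 and 394 with both drugs. The groups with JQ1 lay below those without (log2 -0.69, SE 0.16, adjusted p = 0.0384), and the call held in the omission of replicate 1 of JQ1 and in no other (-0.57 to -0.82). With median centring it was -0.63 and not called (adjusted p = 0.0706). Its partner NUF2 had -0.11 (SE 0.16). CENPF, a kinetochore protein that accumulates in G2, was at 315 and 240.1 with DMSO, 196 and 138 with JQ1, 594 and 287 with rapamycin and 297 and 169.9 with both drugs. Its replicate 1 arrays were higher in every group and the groups overlapped. The change of -0.81 (SE 0.30) had an adjusted p of 0.145, or 0.0101 with the replicate block. CENPE, a kinetochore motor, had -0.11.

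No spindle assembly or midzone gene passed without the replicate block, although 5 of the 6 had a negative JQ1 change. ASPM, a protein of spindle poles, stood at 1458 and 1429 with DMSO, 1108 and 819 with JQ1, 1648 and 1678 with rapamycin and 1179.9 and 1244 with both drugs. All arrays with JQ1 were below all others, with a difference of -0.53 (SE 0.15; the adjusted p was 0.0644, or 0.0326 under the block). DLGAP5, which stabilises spindle fibres, was at 1511 and 1691 with DMSO, 1250.2 and 1417 with JQ1, 1589 and 1156 with rapamycin and 860.2 and 974 with both drugs. The combination arrays were the lowest ones. HMMR, a spindle pole protein and hyaluronan receptor, was at 1099 and 1000.2 with DMSO, 936 and 984 with JQ1, 1901 and 1708 with rapamycin and 1216 and 1190.3 with both drugs. Here both rapamycin arrays were above all others. The remaining JQ1 changes were -0.51 for the midzone bundler PRC1 (SE 0.17), -0.41 for the Aurora A activator TPX2 (SE 0.15) and 0.09 for NUSAP1 (SE 0.13).

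In the last class ECT2, which activates RhoA for cytokinesis, fell. ECT2 stood at 867 and 1053 with DMSO, 484 and 561 with JQ1, 879 and 935 with rapamycin and 505 and 762 with both drugs. The highest combination array was below the lowest array without JQ1, and the log2 change was -0.71 (SE 0.18, adjusted p = 0.0478; -0.56 to -0.86 over omissions of an array, called only without replicate 2 of the combination). BIRC5, the passenger complex subunit survivin, was at 1807 and 1213 with DMSO, 1281 and 892 with JQ1, 1104 and 1142 with rapamycin and 932 and 726 with both drugs. Its DMSO array of replicate 1 was above all others, and its change with JQ1 averaged over rapamycin was -0.46 (SE 0.20, adjusted p = 0.208). FOXM1, the transcription factor of the G2/M programme itself, ran from 221 to 373 over the arrays, with a change of -0.31 (SE 0.16, adjusted p = 0.269). TOP2A, which untangles sister DNA, had -0.29 (SE 0.14) and the cytokinesis scaffold ANLN 0.22 (SE 0.15).

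Each treatment was then set against DMSO on its own. These 3 comparisons share the DMSO arrays. With JQ1 alone no member passed limma's test, where 2.83% of all genes did; 10 members had an unadjusted p under 0.05 (25%, against 18.1% of all genes). The median log2 change of the 40 was -0.19, with 32 of 40 negative, beside 0.00 for all genes. It was -0.43 without replicate 2 of DMSO, -0.38 without replicate 1 of JQ1 and -0.30 with the mean of a gene's probes. The median was smaller with arrays centred on their medians (-0.11), without replicate 1 of DMSO (-0.15) and without replicate 2 of JQ1 (-0.16). In 17 members (42.5%) both JQ1 arrays were below both DMSO arrays, against 23.1% of all genes. The largest differences were those of AURKA (-1.21, adjusted p = 0.0801), BUB1B (-1.16, 0.0665), KIF14 (-1.02, 0.0995) and ECT2 (-0.87, 0.126). With the replicate block these 4 passed, all lower, where 6.7% of all genes did (adjusted p = 0.0367, 0.0209, 0.0418 and 0.0314).

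With rapamycin alone the differences from DMSO went both ways. The 40 genes had a median log2 change of 0.05, with 18 negative and 22 positive, and none passed limma's test without or with the replicate block, where 0.0235% and 0.345% of all genes did; 1 member had an unadjusted p under 0.05, where 9.89% of all genes did. Omission of DMSO replicate 2 turned that median to -0.11, and omission of rapamycin replicate 1 to -0.04. In 7 members the rapamycin arrays were below the DMSO arrays and in 9 above (18.4% and 18% of all genes). HMMR had the largest difference, 0.78 (SE 0.18, adjusted p = 0.241 without and 0.0877 with the block), followed by ESPL1 (0.60), CENPF (0.59), NEK2 (0.54), KIF14 (0.48), TTK (0.48) and CDC25C (0.47). BIRC5 (-0.40), BUB1B (-0.36) and AURKA (-0.34) were at the other end. Averaged over JQ1, the rapamycin change of the 40 genes had a median of -0.01 and again no member passed without or with the block (0.0941% and 4.02% of all genes did), with 3 members at an unadjusted p under 0.05 (13.9% of all genes).

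**Figure D4:**
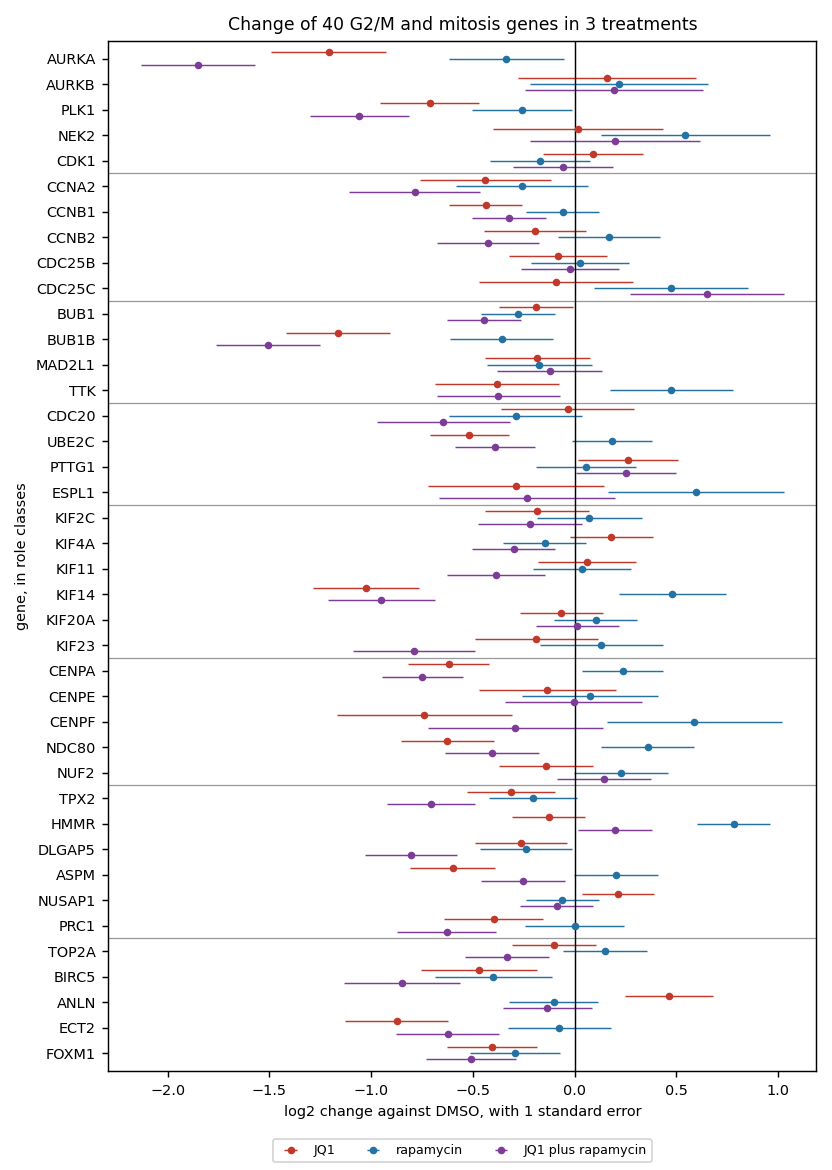
Log2 change against DMSO (points) with 1 SE (bars) for each of the 40 genes, in role classes, with JQ1 in red, rapamycin in blue and the combination in purple, from the limma fit to all 8 arrays. AURKA and BUB1B lie farthest to the left, and HMMR with rapamycin farthest to the right.

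With both drugs AURKA, PLK1 and BUB1B fell: 3 of 40 (7.5%), where 4.25% of all genes were lower. The median of the 40 was -0.35, with 33 negative, beside -0.01 for all genes; 21 members (52.5%) had both combination arrays below both DMSO arrays, against 26.1% of all genes. AURKA fell 3.61-fold (log2 -1.85, SE 0.28, adjusted p = 0.0168). The falls were 2.84-fold for BUB1B (-1.51, SE 0.25, adjusted p = 0.0215) and 2.08-fold for PLK1 (-1.06, SE 0.24, adjusted p = 0.0493). With the replicate block 10 members passed, all lower (25%, against 11.2% of all genes), and those added were CCNA2 (-0.79), CDC20 (-0.65), KIF14 (-0.95), KIF23 (-0.79), CENPA (-0.75), DLGAP5 (-0.80) and BIRC5 (-0.85). The dimmer second probe of CENPA went the other way (0.285). Second probes of KIF23 (-1.35, above the floor on 4 arrays), DLGAP5 (-1.35) and BIRC5 (-0.84) were lower too. The 3 calls did not hold without any one DMSO or combination array. Those fits leave 1 array in a group, and fewer of all genes were called in them too. With only the 4 arrays compared no member was called, and 0 of all genes were. Without a filter no member was called, where 236 of all genes were, against 916 in the main fit. PLK1 was not called with array weights or median centring (limma adjusted p = 0.0554 and 0.0664). Without a JQ1 array AURKA and BUB1B were called, and without a rapamycin array AURKA alone. Omitting 1 array at a time gave log2 changes of -2.07 to -1.63 for AURKA, -1.77 to -1.25 for BUB1B and -1.26 to -0.86 for PLK1.

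What each drug added to the other was asked next. JQ1 on top of rapamycin lowered AURKA (log2 -1.51, SE 0.28, adjusted p = 0.046) and KIF14 (-1.43, SE 0.26, adjusted p = 0.0441), 2 of 40 (5%), where 1.68% of all genes were lower. The median of the 40 was -0.45 and 36 were negative, and in 25 of the 40 (62.5%) both combination arrays were below both rapamycin arrays, against 23.8% of all genes. With the block 6 passed (15%, against 7.05%), with BUB1B (-1.15), KIF23 (-0.92), CENPA (-0.98) and CENPF (-0.88) added. Second, dimmer probes had -1.06 for KIF23 and 0.01 for CENPA. Neither the AURKA nor the KIF14 call held in any omission of an array, and fewer of all genes were called in each omission too. Over the omissions the log2 changes ran from -1.74 to -1.29 for AURKA and from -1.65 to -1.21 for KIF14. Neither gene was called with median centring (limma adjusted p = 0.0527 and 0.0542) or with array weights (0.0521 and 0.0511). All-gene calls were 327 and 261 in those fits, against 334 in the main fit. Rapamycin on top of JQ1 changed no member by limma's test without or with the block (0% and 0.0157% of all genes passed); 2 members had an unadjusted p under 0.05, where 8.28% of all genes did, and the median was -0.07. AURKA had -0.64 there (SE 0.28, limma adjusted p = 0.633). In 12 members (30%) both combination arrays were below both JQ1 arrays, and in 6 they were above. Of all 12759 genes 2099 and 1906 were so placed.

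The series' title speaks of synergy, and the interaction, or how much the JQ1 change differs in the presence of rapamycin, addresses whether the drugs add up on the log2 scale. No member passed (0% of all genes did, and 0.00784% with the replicate block), and no member had an unadjusted p under 0.05, where 3.51% of all genes did. The median was -0.14, with 27 of 40 negative, and ran from -0.27 to -0.04 over omissions of an array. For AURKA the interaction was -0.31 (SE 0.40), for PLK1 -0.09 (SE 0.34) and for BUB1B 0.01 (SE 0.36). KIF23 had the largest, -0.73 (SE 0.43, adjusted p = 0.999). The SE of the interaction ran from 0.25 to 0.62 over the 40 genes, so a difference as small as the median JQ1 change of -0.35 was not detectable.

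Other genes of the same programme, 67 on a list that does not overlap the 40, were counted beside them, and 64 were measured. With JQ1 averaged over rapamycin 11 fell (17.2%, against 7.38% of all genes) and 2 rose (3.12%, against 4.37%), with a median of -0.18. With the replicate block 19 fell (29.7%, against 13.8%) and 7 rose (10.9%, against 9.55%); the 7 were KNL1, CDCA2, CKAP2, CKS2, KPNA2, CDKN3 and MASTL. SGO1, the guardian of centromeric cohesin, stood at 252 and 228 with DMSO and 117 and 113 with JQ1. It stood at 215 and 298 with rapamycin and 138 and 126.5 with both drugs. Its difference between JQ1 alone and DMSO did not pass without the block (limma adjusted p = 0.058). With JQ1 averaged over rapamycin SGO1 fell without the block (limma adjusted p = 0.0108). PLK4, the kinase of centriole duplication, had -0.93 (adjusted p = 0.0102), the APC/C subunits CDC23 and CDC16 -1.06 and -0.60, the kinetochore gene SPC25 -0.76 and RACGAP1, the partner of KIF23, -0.73. Also lower were PSRC1 (-1.25), LMNB1 (-0.90) and ARHGAP11A (-0.63). FZR1, an activator of the APC/C, was called lower too (limma adjusted p = 0.043). It stood at 63.8 and 62.2 with DMSO, 23.8 and 32.4 with JQ1 and 32 and 20.9 with rapamycin. On both combination arrays it was at the floor, at least 3.15-fold lower than with DMSO. The ubiquitin ligase gene G2E3 was at the floor on all 4 arrays with JQ1, at least 4.93-fold lower with JQ1 than with DMSO. CDCA2 (1.02) and the kinetochore scaffold gene KNL1 (0.78) rose.

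Against DMSO 1 gene of that list fell with JQ1 (G2E3; 1.56%, against 1.77% of all genes), none passed with rapamycin and 7 fell with both drugs (GTSE1, CDC23, FZR1, LMNB1, G2E3, PSRC1 and PLK4; 10.9%, against 4.25%). The medians were -0.17, -0.05 and -0.29. With the replicate block 4 fell and 2 (KNL1 and CDCA2) rose with JQ1 (6.25% and 3.12%, against 6.7% and 4.48%), none passed with rapamycin, and 14 fell and 2 (KNL1 and CKS2) rose with both drugs (21.9% and 3.12%, against 11.2% and 7.77%).

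Of 13 measured regulators of the MuvB, DREAM and B-MYB complexes, 2 fell with JQ1 averaged over rapamycin (15.4%, against 7.38% of all genes), and 4 with the replicate block (30.8%, against 13.8%), with LIN52 and RBL1 added. LIN9, a subunit of the MuvB core, stood at 202 and 185 with DMSO, 100.1 and 81.3 with JQ1, 257 and 150 with rapamycin and 90.7 and 75.7 with both drugs. Arrays with JQ1 did not overlap the others (log2 -1.17, SE 0.21, adjusted p = 0.0159). E2F5, a repressive E2F, fell by 1.44 on the log2 scale (adjusted p = 0.00316). With both drugs E2F5 fell and LIN37, another MuvB core subunit, rose against DMSO (1 of 13 higher, where 2.93% of all genes were). LIN37 was at 21.3 and 20 with DMSO, 20 and 31.3 with JQ1, 47.3 and 30.6 with rapamycin and 79.8 and 78.8 with both drugs, where 20 is the floor (log2 1.94, SE 0.30, adjusted p = 0.0168). With the block 5 of these regulators were lower with both drugs (38.5%, against 11.2% of all genes) and LIN37 was higher (7.69%, against 7.77%).

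Genes of G1/S and DNA replication, the preceding step of the cycle, are given for contrast; 43 of 47 were measured. With JQ1 averaged over rapamycin 3 of them fell (6.98%, against 7.38% of all genes) and 1 rose (2.33%, against 4.37%). Their median was -0.15, beside -0.35 for the 40 G2/M genes. With the replicate block 15 fell (34.9%, against 13.8% of all genes and 32.5% of the G2/M genes) and 4 rose (9.3%, against 9.55% of all genes). With JQ1 alone against DMSO the G1/S median was -0.23, beside -0.19 for the G2/M genes. There 1 G1/S gene fell (2.33%, against 1.77% of all genes and 0% of the G2/M genes). With the block 6 fell (14%, against 6.7% of all genes and 10% of the G2/M genes) and 1 rose (2.33%, against 4.48% of all genes). With rapamycin alone the G1/S median was -0.32, with 37 of 43 negative, beside 0.05 and 18 of 40 negative for the G2/M genes. With both drugs the medians were -0.51 and -0.35, and 4 G1/S genes fell (9.3%, against 4.25% of all genes), or 16 with the block (37.2%, against 11.2%). No G1/S gene passed with rapamycin alone without or with the block. With rapamycin averaged over JQ1 none passed without the block and 7 fell with it (16.3%, against 1.83% of all genes). These were CCNE1, MCM3, ORC1, POLE2, FEN1, CHAF1A and UHRF1. In that fit none of the 40 members passed, while GTSE1 and FZR1 of the other G2/M list fell (3.12%). Of the MuvB, DREAM and B-MYB regulators LIN37 and TFDP2 rose there (15.4%, against 2.19% of all genes). No test of the difference between the lists was made.

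**Figure D5:**
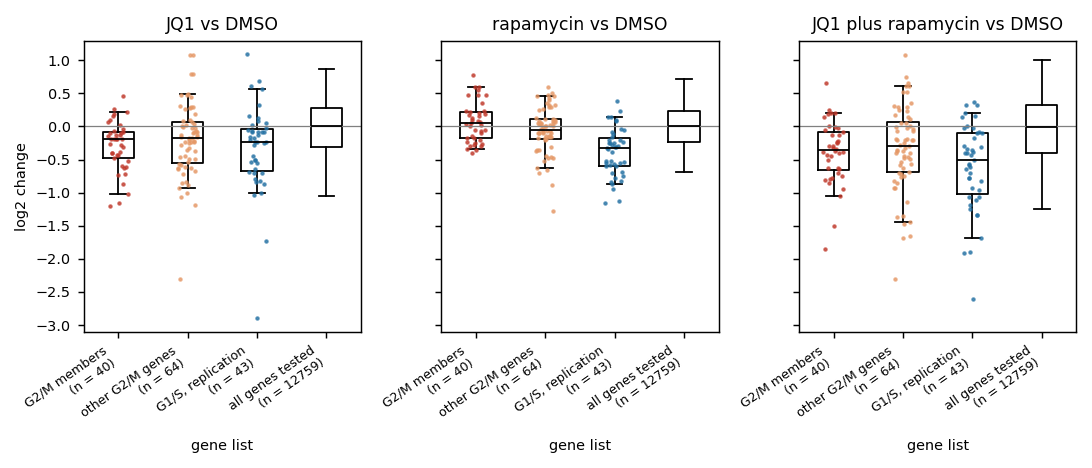
Log2 change against DMSO in 3 panels (JQ1, rapamycin, both drugs) for the 40 G2/M genes, 64 other G2/M genes, 43 G1/S genes and all 12759 genes; boxes span the quartiles with the median, whiskers leave out 5% of the genes at either end, and points are genes of the first 3 lists. With rapamycin the G2/M median is 0.05 and the G1/S median -0.32.

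Read beside the promoters, the 23 members with a CHR-like match had a median JQ1 change of -0.39, from -1.23 for KIF14 to 0.22 for ANLN, and 6 of them fell. The 11 without one had a median of -0.11, from -0.81 for CENPF to 0.23 for PTTG1, and none was called. The 15 members with at least 2 CCAAT copies had a median of -0.35, from -0.81 to 0.23, and 2 of them were called. The other 19 had a median of -0.18, from -1.23 to 0.22, and 4 of them were called. CDK1, KIF4A and NUSAP1 hold both kinds of match, and their JQ1 changes were 0.10, 0.01 and 0.09. These are descriptions of the letters in one window, with no test, and the 6 members with no promoter entry, AURKA and UBE2C among them, are outside these counts.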

How the data were processed

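Biotin-labelled cRNA from 8 RNA samples was hybridised to arrays whose probe identifiers are Illumina's, although the design text gives another manufacturer. The authors deposited linear probe intensity in both tables: a non-normalized one, and a normalized one with a floor of 20, whose method the labels do not state. The normalized intensity was log2-transformed here. Of 47304 probes 30102 carried 1 symbol, 8 several and 17194 none; 30063 symbols were updated through RefSeq (GRCh38.p14). Probes above 20 on at least 2 arrays were kept (23860), with the probe of the highest mean log2 value per gene.

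limma 3.58.1 (R 4.3.3) was run on all 8 arrays with 1 coefficient for each group (4 residual and 2.92 prior degrees of freedom); adjusted p-values are Benjamini-Hochberg values over 12759 genes, called under 0.05. The code was tested on simulated data. Same-numbered arrays deviated together (correlations of replicate differences between groups, 0.42 to 0.55), so the fit with the replicate number as a block is given where it changes a call; the pairing comes from the titles' numbers and this check, not from a stated batch. The number of arrays limits the precision.

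The members, lists and tests were chosen with earlier results of these data known. Values on all arrays are printed for members called without or with the block in any comparison and for the member of each role class with the largest difference in each treatment; AURKB, printed too, was chosen after its values were seen. Alternatives were other filters, probe rules, scalings, variance models, array weights, the non-normalized signals plus 50, the header's array names, a threshold of 0.01 and the omission of each array.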

Additional observations from a re-analysis of the deposited data

Results flagged for a closer look

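By the overlap of arrays alone, TOP2A, the topoisomerase that untangles sister chromatids, differed in opposite directions with rapamycin without and with JQ1. Its rapamycin arrays (2681 and 2806) were above its DMSO arrays (2623 and 2331), while its combination arrays (1714 and 2246) were below its JQ1 arrays (2319 and 2297). The interaction was -0.38 on the log2 scale (SE 0.29, limma, adjusted p = 0.999), so the difference did not pass the test. Of all 12759 genes 18% had both rapamycin arrays above both DMSO arrays, and 2099 had both combination arrays below both JQ1 arrays. How many genes showed both was not counted.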

How the results depend on the processing

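With the replicate block the count of members called was 4 for JQ1 against DMSO (0 without it), 10 for the combination against DMSO (3 without it), 6 for the combination against rapamycin (2 without it) and 13 for JQ1 averaged over rapamycin (8 without it); it called no member in the other 4 comparisons and ended no call. With no filter on low values these counts were 0, 0, 0 and 1. Of all genes 145, 236, 107 and 641 were called there, against 361, 916, 334 and 1498 in the main fit. With arrays centred on their medians the count of members was 0 for the combination against rapamycin and 5 for JQ1 averaged over rapamycin. With array weights the count for the combination against rapamycin was 0. The non-normalized signals plus 50 gave 1 for JQ1 and 6 for the combination against DMSO, and a trended robust variance gave 1 for JQ1. At an adjusted p under 0.01 the counts were 0 for the combination against DMSO, 0 against rapamycin and 1 for JQ1 averaged over rapamycin. Fits to only the groups compared gave 0 and 0 for the first pair, and called 0 of all genes as well. Over omissions of an array the count ran from 0 to 2 for the combination against DMSO, 0 to 0 against rapamycin and 1 to 5 for JQ1 averaged over rapamycin. Counts for rapamycin against DMSO, the combination against JQ1, the interaction and rapamycin averaged over JQ1 were 0 in every alternative run.

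With the array names of the non-normalized table's header the counts were 0 for the combination against DMSO, 0 against rapamycin and 0 for JQ1 averaged over rapamycin, and the JQ1 changes reversed for UBE2C (0.15), KIF14 (0.28), CENPA (0.054), NDC80 (0.29) and ECT2 (0.087), as did that of KIF14 for the combination against rapamycin (0.42). Over all genes the count for JQ1 averaged over rapamycin was 1498, 2985 with the block, 641 without a filter, 385 at 0.01 and 2 with the header's names. With those names the all-gene count was 130 for the combination against DMSO and 0 against rapamycin, where the main fit had 916 and 334. Apart from the fits with fewer arrays and the regrouped arrays, the cause of these shifts was not tested. No reversal occurred for these genes under any other alternative run, and intensities near the floor limited none of the 40 genes.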

Other observations

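Replicates 1 and 2 differed in some of the 40 genes by as much as the treatments did. AURKB was lower in replicate 2 in all 4 groups, with a mean log2 difference of -0.70, as were CENPF (-0.69), CDC20 (-0.49), CCNA2 (-0.49) and KIF23 (-0.46). NEK2 (0.67), CDC25C (0.59), CCNB2 (0.32) and ECT2 (0.29) were higher in replicate 2 in all 4 groups. In all, 7 members were lower and 7 higher in every group, beside 14.1% and 19.7% of all genes; these genes were picked after their values were seen, and no test was made.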
